A study of Mus musculus with 6 samples.

Results

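The lysosome is the acidic organelle in which cells break down what they take up, and 45 genes of its degradative machinery were followed through 3 fractions of phagocytes sorted from mouse sublingual mucosa. The set holds 12 genes of the cathepsin and legumain proteases, 9 genes of glycosidases, lipases and other soluble proteins, 8 genes of lysosomal membrane proteins and their regulator, and 16 genes of the vacuolar proton pump (V-ATPase). The genes were listed with earlier results of these data known, and their probes were taken by gene name alone. Every non-control probe on the arrays that carries 1 of these names was used, which gave 89 of 56605 probes. Each gene was read from its brightest probe. All 45 genes were found. Of them, 43 gave a signal well above background on the 2 arrays of some fraction and were tested, among 20817 genes tested in all. On all 6 arrays 34 did, against 65.2% of all genes tested. Atp6v1c1, a subunit of the pump's cytosolic sector, was above background on no array (0 of 6), and Ctso, which encodes cathepsin O, on 1 Fr2 array.

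The 6 arrays hold 3 sorted fractions with 2 replicates each, from independent experiments according to the series design. All mice were of the inbred strain BALB/c, and all were painted with FITC, a fluorescent hapten that provokes contact sensitisation, so no unpainted group is compared here. The series design places the painting on the sublingual mucosa, 2 times, and names that mucosa as the source of the cells, while the labels' protocols name the dorsal tongue as the tissue digested, so the site is not settled. Fr1 is CD11c+CD206-, Fr2 is CD11c-F4/80+CD206- and Fr3 is F4/80+CD206hi, where CD11c is an integrin of dendritic cells and of some macrophages, F4/80 the macrophage antigen encoded by Adgre1 and CD206 the mannose receptor encoded by Mrc1. The digestion before the sort lasted 30 min. Age, sex and the number of mice per sort are not given in the sources used here.

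Lysosomal enzymes are made as precursors and work at acid pH. The V-ATPase sets that pH: its cytosolic V1 sector splits ATP, and its membrane V0 sector carries protons into the lumen. Cathepsins then cut proteins, and glycosidases and lipases strip sugars and lipids. Macrophages are known for strong lysosomal degradation, whereas dendritic cells degrade more slowly and keep peptides for display on MHC class II. The transcription factor TFEB raises many of these genes together through a promoter element built around the E-box core CACGTG.

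That core was looked for in the RefSeq promoters of the set, which run from 250 bases before to 50 after each annotated start on GRCm38.p6. Promoters were at hand for 36 of the 45 genes. CACGTG, which reads the same on both strands, stood in 12 of the 36 (33.3%), against 8.09% of the 27025 genes with a promoter in the same table. The longer form TCACGTG, searched on both strands and containing the core, stood in 11 (30.6% against 4.29%), and the palindrome TCACGTGA, which contains both, in 6 (16.7% against 1.12%). The stretches below are 1 with the palindrome for each gene that has it, and 1 each for 2 genes that the results return to, Glb1 and Lamp1. Capitals mark the core, each stretch reads 5′ to 3′ in the direction of its gene, and positions count the annotated start as 1 and the base before it as -1.
Ctsa: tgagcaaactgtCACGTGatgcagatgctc
Ctsd: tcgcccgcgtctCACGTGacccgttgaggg
Glb1: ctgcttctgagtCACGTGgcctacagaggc
Lamp1: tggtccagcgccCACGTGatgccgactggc
Mcoln1: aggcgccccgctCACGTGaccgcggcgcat
Atp6v0d1: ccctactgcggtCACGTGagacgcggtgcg
Atp6v0e: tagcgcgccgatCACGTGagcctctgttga
Atp6v1a: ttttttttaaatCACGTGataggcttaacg
The Ctsa stretch is chr2:164833749-164833778 on the plus strand, with its core at position -12. The Ctsa promoter also held the palindrome with its core at position 6, which is not shown. The Ctsd stretch is chr7:142387908-142387937 on the minus strand, with its core at position -98. The Glb1 stretch is chr9:114401018-114401047 on the plus strand, with its core at position -48. The Lamp1 stretch is chr8:13159104-13159133 on the plus strand, with its core at position -45. The Mcoln1 stretch is chr8:3500462-3500491 on the plus strand, with its core at position -45. The Atp6v0d1 stretch is chr8:105566050-105566079 on the minus strand, with its core at position -3. The Atp6v0e stretch is chr17:26676387-26676416 on the plus strand, with its core at position 4. The Atp6v1a stretch is chr16:44139373-44139402 on the minus strand, with its core at position -131. The Lamp1 promoter held the core at 3 more positions, -61, -28 and -15, and those of Ctsa, Ctsd, Mcoln1 and Atp6v0b held it at 2 positions each. A match describes these letters and is not a measured binding site.

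Levels are log2 of the spot intensity minus the 75th percentile of that array, so a level of 1 is 2-fold brighter than the array's 75th percentile. They compare a gene between arrays, not 1 gene with another. Between 44.6% and 52.4% of spots were well above background on an array and none was saturated (0 on every array). The markers of the sort held only in part at the RNA level. Mrc1 was above background on no Fr1 array and measured 0.64 and 0.33 in Fr2, labelled CD206-, against 3.78 and 2.67 in Fr3. Itgax, which encodes CD11c, measured 2.71 and 2.35 in Fr1, 2.77 and 1.20 in Fr2, labelled CD11c-, and 0.20 and 0.95 in Fr3. Adgre1 was on in every array, at 4.49 and 4.39 in Fr1, 5.94 and 5.97 in Fr2 and 5.46 and 5.32 in Fr3. Fr1 and Fr3 were hybridised and scanned on 1 slide and Fr2 on another, so slide and fraction cannot be told apart for Fr2. The Fr3 arrays differed most between replicates over all genes (r = 0.796, against 0.883 in Fr1 and 0.898 in Fr2, Pearson across genes), while over the 43 lysosomal genes Fr2 differed most (r = 0.893, against 0.971 in Fr1 and 0.950 in Fr3). In Fr2, 13 of the 43 were over 2-fold lower on replicate 2 than on replicate 1 and 5 over 2-fold higher. Of the 20817 genes in all, 3045 were over 2-fold lower on Fr2 replicate 2 and 2998 over 2-fold higher.

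The mean level was higher in the CD206-high macrophage fraction Fr3 than in the CD11c fraction Fr1 for 31 of the 43 lysosomal genes, against 10940 of the 20817 genes in all. Both Fr3 arrays lay above both Fr1 arrays for 21 of the 43 genes, against 21.9% of all genes tested, and both Fr1 arrays lay above both Fr3 arrays for 5, against 13.7%. The median difference, Fr3 minus Fr1, was 0.68 over the 43 genes and 0.05 over all genes. The gap between these medians was narrower without 2 of the arrays: taken as Fr1 minus Fr3, the medians were -0.59 over the 43 and -0.28 over all genes without Fr3 replicate 1, and -0.58 and -0.21 without Fr1 replicate 2. No lysosomal gene (0 of 43) passed an adjusted p of 0.05 in limma in this comparison, in which 1 gene of 20817 did (0.0048%). At an unadjusted p under 0.05, 9 of the 43 were higher in Fr3 (5.34% of all genes) and 1 was higher in Fr1 (2.78%). Both Fr3 arrays lay above all 4 others for 11 of the 43 (8.73% of all genes), both Fr1 arrays below all 4 others for 11 (11%), and both Fr2 arrays above all 4 others for 7 (10.3%). Among the 34 genes above background on all 6 arrays, 20 lay higher in Fr3, against 21.9% of the genes measured on all 6.

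The higher share in Fr3 was present with each of the 4 arrays left out. Without Fr3 replicate 1, 27 of 43 lay higher in Fr3 (46.2% of all genes), and without Fr3 replicate 2 also 27 (29.9%). Without Fr1 replicate 1 it was 24 (30.5%), and without Fr1 replicate 2 it was 26 (41.6%). The count of genes higher in Fr1 was 10 without Fr3 replicate 1 (28.3% of all genes), 9 without Fr3 replicate 2 (35.3%), 6 without Fr1 replicate 1 (30.9%) and 9 without Fr1 replicate 2 (28.6%). In a bulk sample, fewer cells that carry an RNA and less of it per cell cannot be told apart.

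**Figure D1:**
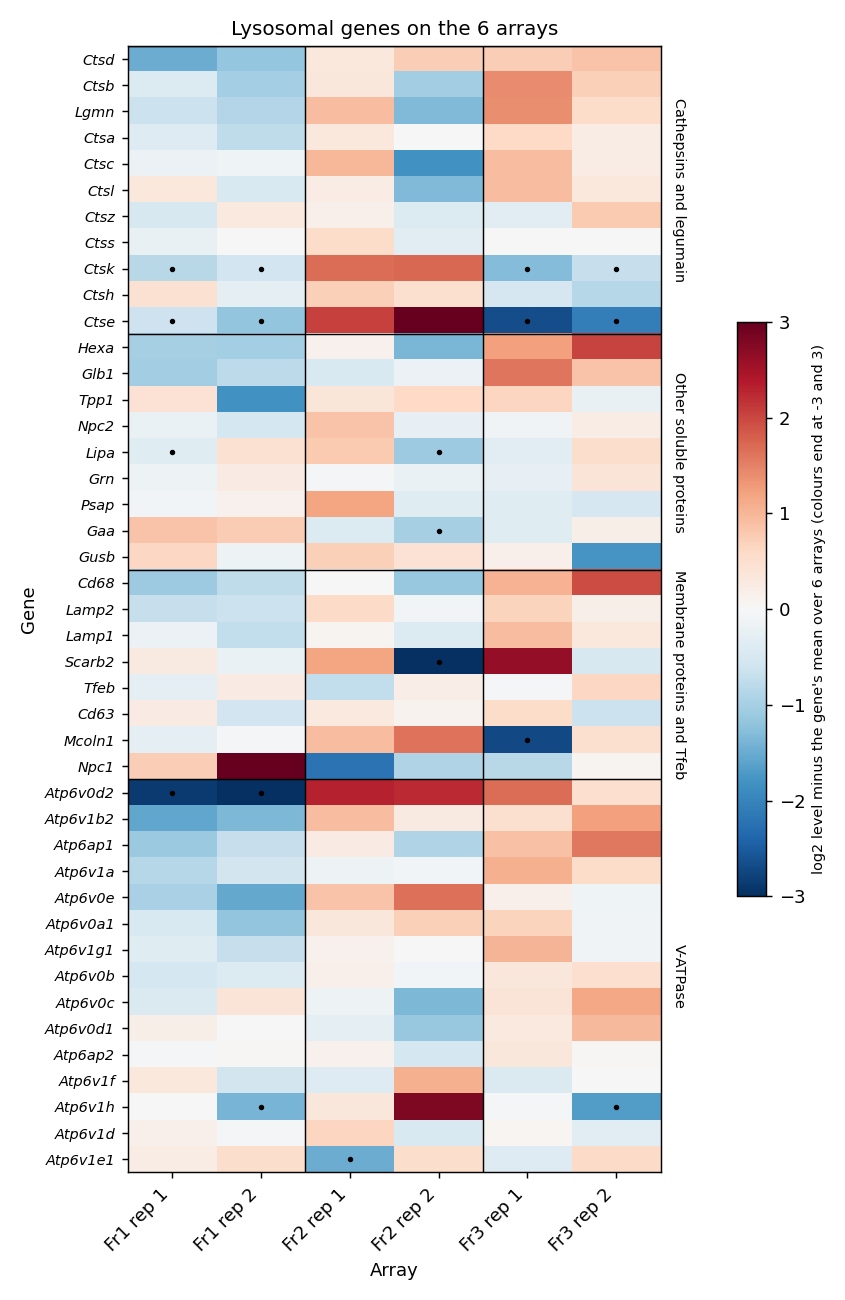
Levels of the 43 tested lysosomal genes on each of the 6 arrays, each gene centred on its own mean over the arrays (log2, red higher and blue lower), ordered by role and by Fr3 minus Fr1. Black dots mark probes not well above background on that array, as for Ctse and Ctsk on all 4 Fr1 and Fr3 arrays. The Fr1 columns are mostly blue and the Fr3 columns mostly red, while the Fr2 columns differ from each other.

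For Fr2 the counts depended on the array. Both Fr2 arrays lay above both Fr1 arrays for 16 of 43 genes (22.3% of all genes) and below for 3 (22.5%), with a median Fr2 minus Fr1 of 0.39 (all genes -0.03). Without Fr2 replicate 2 the counts were 32 higher in Fr2 (35.3%) and 5 higher in Fr1 (37.1%). Without Fr2 replicate 1 they were 19 (33.8%) and 17 (34.3%), and without Fr1 replicate 1 they were 22 (35.6%) and 7 (41.2%). Against Fr3, 14 genes lay higher in Fr3 (22.7%) and 8 higher in Fr2 (19.5%), the latter close to the share over all genes. Without Fr2 replicate 1, 26 lay higher in Fr3 (36.3%), and without Fr3 replicate 2, 22 did (35.3%). Without Fr2 replicate 2 it was 16 (37.4%) and without Fr3 replicate 1 it was 19 (44.5%), both near the share over all genes. The 8 became 14 without Fr2 replicate 2 (31.8%) and 13 without Fr3 replicate 1 (34.4%). In limma 0 of the 43 were called in either comparison, against 0 genes in all for Fr1 and Fr2 (0%) and 1 for Fr2 and Fr3 (0.0048%). At an unadjusted p under 0.05, 2 were higher in Fr1 and 6 in Fr2 in the first (3.33% and 6.46% of all genes), and 2 were higher in Fr2 and 4 in Fr3 in the second (4.83% and 4.08%). The 2 higher in Fr2 than in Fr3 are Ctse and Ctsk, which were kept for testing through their Fr2 arrays alone. Both are also among the 6, and among the 16 and the 8 without overlap. Their part in these counts is therefore not independent of that filter.

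**Figure D2:**
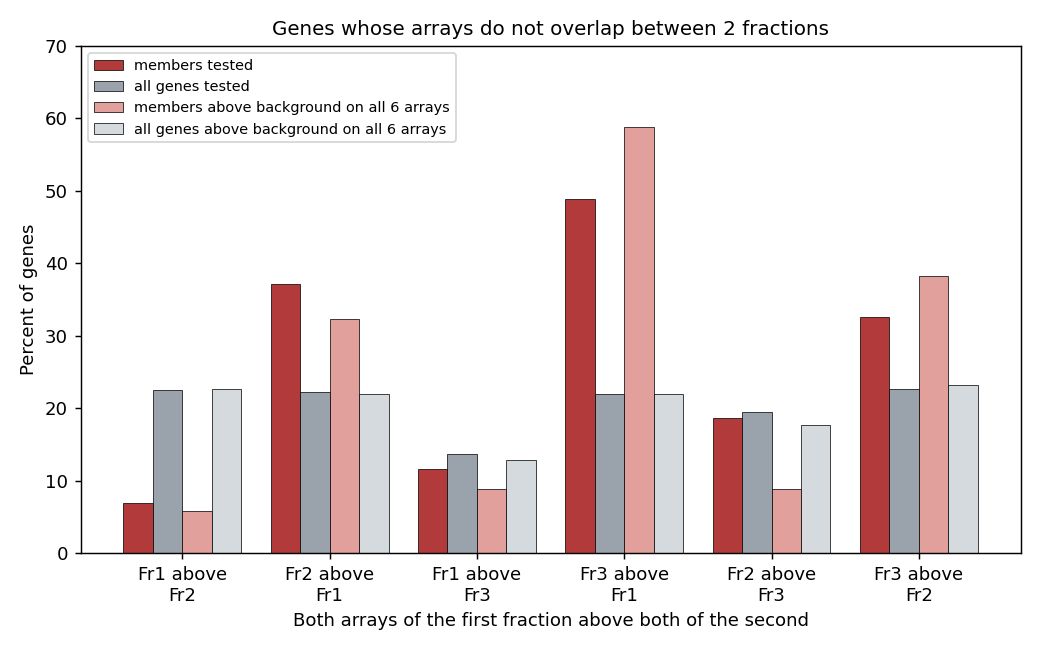
Percent of genes for which both arrays of 1 fraction lay above both arrays of another, for the 43 lysosomal genes and the 20817 genes tested, and for those above background on all 6 arrays (34 and 13572). The widest gap between lysosomal and all genes is in the bars for Fr3 above Fr1, at 48.8% against 21.9% of the genes tested and 58.8% against 21.9% of those above background on all 6 arrays.

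Of the 15 tested genes of the proton pump, 10 lay higher in Fr3 than in Fr1 on both arrays (21.9% of all genes) and 0 lay lower (13.7%), with a median of 0.89. All 6 genes of the membrane sector V0 in the set were among the 10, against 3 of 7 tested genes of the cytosolic sector V1 and 1 of the 2 accessory proteins. The share over all genes is again 21.9%. The V0 pattern holds for the set only. Among V0 genes outside it, Atp6v0a2 lay higher in Fr1 without overlap. Atp6v0e2 lay higher in Fr3, but it was kept for testing through its Fr3 arrays alone. Its order is therefore not independent of that filter. The values of both genes are given further below. Relative to Fr2, 5 of the 15 lay higher in Fr3 (22.7% of all genes) and 3 lower (19.5%), and 3 of 15 is near the share over all genes.

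Atp6v0d2 encodes the d2 isoform of the V0 subunit d, known from osteoclasts and macrophages. Its probe (chr4:19805367-19805426 on mm9, the build of the files) was dim on both Fr1 arrays and on in the rest, at -3.45 and -4.40 on the 2 arrays of Fr1, 1.73 and 1.66 on those of Fr2 and 1.09 and -0.08 on those of Fr3. The Fr1 arrays were thus the low ones, with no overlap. Where a fraction is not above background, a fold is given as at least the brighter mean over a floor for the dim fraction, which is the lowest signal well above background on each of its arrays or the probe's own signal where that is higher, averaged. Fr2 was at least 15.5-fold above Fr1 (means 1.69 and -3.92, limma adjusted p = 0.19), and Fr3 at least 6.81-fold (mean 0.51, limma adjusted p = 0.14). Without Fr3 replicate 1, Fr1 minus Fr3 was -3.85 on the log2 scale. With only the 4 arrays of Fr1 and Fr2 fitted, the limma adjusted p for Fr1 against Fr2 was 0.0454. In that fit 13 of 20817 genes were called. Leaving out either Fr3 array repeats that fit and is not a separate check. Over the settings tried, the limma adjusted p rose as high as 0.61 for Fr1 against Fr3 and 0.761 for Fr1 against Fr2. The ubiquitous isoform Atp6v0d1 measured 0.45 and 0.26 in Fr1, -0.01 and -0.85 in Fr2 and 0.56 and 1.25 in Fr3, with Fr2 lowest. Of 6 osteoclast markers taken as a check, the summed linear level was 5.81 to 9.65 in Fr1, 6.65 to 11.7 in Fr2 and at most 5.36 in Fr3, so Fr1 and Fr2 overlapped and Fr3 lay lowest. Of these 6 markers, 5 and 4 were above background on the Fr1 arrays, 5 and 5 on those of Fr2 and 4 and 4 on those of Fr3; Ocstamp was dim on both Fr1 arrays, Calcr on both Fr2 arrays and Acp5 on both Fr3 arrays. Their part in the Atp6v0d2 levels was not tested.

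Atp6v1b2, the ATP-binding B2 subunit of V1, measured 4.15 and 4.37 on the 2 arrays of Fr1, 6.64 and 5.97 on those of Fr2 and 6.19 and 6.93 on those of Fr3 (chr8:71637354-71637413). Fr1 was low and the other 4 arrays overlapped. Fr3 averaged 4.94-fold above Fr1 (2.30 ± 0.58 on the log2 scale, limma adjusted p = 0.34), and Fr2 4.14-fold (2.05 ± 0.58 on the log2 scale, limma adjusted p = 0.39). A second, dimmer probe placed Fr1 and Fr2 in the opposite order. Atp6v0e, a small membrane subunit of V0, measured -0.89 and -1.45 on the 2 arrays of Fr1, 0.95 and 1.74 on those of Fr2 and 0.24 and -0.05 on those of Fr3 (chr17:26836332-26836391). Here Fr2 was highest, Fr3 in the middle and Fr1 lowest, with no overlap between any pair. Fr2 averaged 5.72-fold above Fr1 (2.52 ± 0.58 on the log2 scale, limma adjusted p = 0.32).

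The accessory protein gene Atp6ap1, whose product helps assemble the pump, measured 2.27 and 2.69 in Fr1, 3.62 and 2.48 in Fr2 and 4.27 and 4.97 in Fr3. Both Fr3 arrays were above the other 4, and both of its kept probes gave Fr3 as higher (2.14 ± 0.64 on the log2 scale, limma adjusted p = 0.42 for the brighter). Atp6v1a, the catalytic A subunit, measured 3.74 and 4.04 in Fr1, 4.43 and 4.52 in Fr2 and 5.66 and 5.15 in Fr3, in the order Fr1, Fr2, Fr3 with no overlap. Of the remaining V0 genes, Atp6v0a1 measured -0.31 and -1.04 in Fr1, 0.49 and 0.86 in Fr2 and 0.81 and 0.04 in Fr3, and Fr3 lay above Fr1 by 0.89 for Atp6v0b and 0.80 for Atp6v0c on the log2 scale. Of the other V1 genes, Atp6v1g1 lay 0.99 higher in Fr3 without overlap. For Atp6v1d, Atp6v1e1, Atp6v1f, Atp6v1h and the accessory gene Atp6ap2 the Fr1 and Fr3 arrays overlapped, with differences between -0.29 and 0.18. Atp6v1h stood out in 1 Fr2 array, at 1.35 on replicate 2 against -1.10 on replicate 1.

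**Figure D3:**
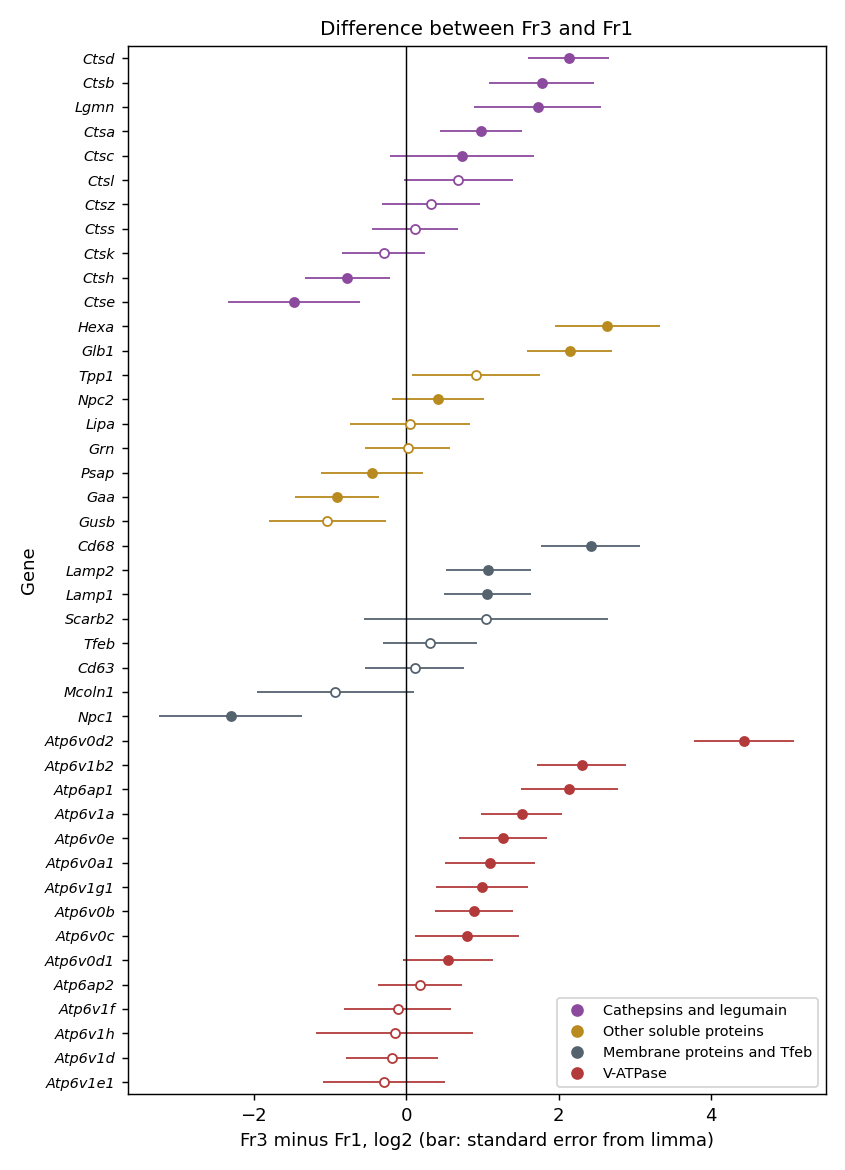
Fr3 minus Fr1 for each of the 43 tested genes, in log2 units with the standard error from limma, coloured by role; filled points are genes whose 2 arrays per fraction do not overlap. Atp6v0d2 is dim in Fr1, and Ctse and Ctsk are dim in both fractions, so their points describe background levels. The V-ATPase has 10 filled points, all to the right of 0.

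Among the proteases, 5 of the 11 tested genes lay higher in Fr3 than in Fr1 without overlap (21.9% of all genes) and 2 lay lower (13.7%). The 2 are Ctsh and Ctse, and Ctse was dim on all 4 of these arrays, so its order there is that of background levels. Ctsd encodes cathepsin D, the main aspartic protease of lysosomes. It measured 0.94 and 1.27 on the 2 arrays of Fr1, 2.75 and 3.17 on those of Fr2 and 3.19 and 3.30 on those of Fr3 (chr7:149561962-149562021). All 4 arrays of Fr2 and Fr3 were above both Fr1 arrays. Fr3 averaged 4.40-fold above Fr1 (2.14 ± 0.53 on the log2 scale, limma adjusted p = 0.33) and Fr2 3.61-fold (1.85 ± 0.53 on the log2 scale, limma adjusted p = 0.39). Ctsb, which encodes the cysteine protease cathepsin B, measured 4.57 and 3.96 in Fr1, 5.32 and 3.93 in Fr2 and 6.40 and 5.69 in Fr3. Only the Fr3 arrays stood clear of the rest, 3.43-fold above Fr1 (1.78 ± 0.69 on the log2 scale, limma adjusted p = 0.58).

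Lgmn encodes legumain, the asparaginyl endopeptidase that processes other cathepsins. It measured 3.06 and 2.81 in Fr1, 4.62 and 2.36 in Fr2 and 5.08 and 4.24 in Fr3, so the Fr2 replicates differed by more than Fr1 and Fr3 did on average. Ctsc, whose product activates granule serine proteases, showed the same split within Fr2, at 2.66 and 2.71 in Fr1, 3.84 and 1.03 in Fr2 and 3.76 and 3.08 in Fr3. Ctsa, the protective protein of lysosomal sialidase and galactosidase, measured 5.45 and 5.06 in Fr1, 6.13 and 5.84 in Fr2 and 6.42 and 6.05 in Fr3, with Fr1 lowest. Ctsl and Ctsz overlapped between Fr1 and Fr3, at 0.68 and 0.32 (Fr3 minus Fr1). Ctss encodes cathepsin S, which trims the MHC class II invariant chain in antigen-presenting cells. It was level across the fractions, at 8.31 and 8.52 on the 2 arrays of Fr1, 9.08 and 8.18 on those of Fr2 and 8.54 and 8.52 on those of Fr3 (chr3:95360162-95360221). Its Fr3 minus Fr1 difference was 0.12 ± 0.57 on the log2 scale, limma adjusted p = 0.98. Ctsh, an aminopeptidase of the same family, went the other way, at 2.14 and 1.42 in Fr1, 2.40 and 2.17 in Fr2 and 1.19 and 0.84 in Fr3. Both Fr3 arrays were below the other 4, and all 4 of its kept probes placed Fr3 below Fr1.

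A pair of proteases was found above background only in Fr2. Both were kept for testing through their Fr2 arrays alone, so their folds and p-values for Fr2 are not independent of that filter. Ctse encodes cathepsin E, an aspartic protease of immune cells and gastric epithelium that sits mostly in endosomes. It measured -2.92 and -3.47 on the 2 arrays of Fr1, -0.23 and 2.19 on those of Fr2 and -4.95 and -4.37 on those of Fr3 (chr1:133571990-133572049), with the Fr1 and Fr3 arrays not well above background. Fr2 was at least 9.45-fold above Fr1 (means 0.98 and -3.19, limma adjusted p = 0.31) and at least 11.9-fold above Fr3 (mean -4.66, limma adjusted p = 0.12). Without Fr3 replicate 1, Fr2 minus Fr3 was 5.35 on the log2 scale. Over the settings tried, the limma adjusted p for Fr2 against Fr3 rose as high as 0.698. Ctsk encodes cathepsin K, the collagen-cutting protease of osteoclasts and fibroblasts. It measured -4.40 and -4.13 on the 2 arrays of Fr1, -1.89 and -1.85 on those of Fr2 and -4.86 and -4.25 on those of Fr3 (chr3:95313165-95313224), which is at least 1.31-fold above Fr1 (means -1.87 and -4.26, limma adjusted p = 0.32) and at least 1.65-fold above Fr3 (mean -4.56, limma adjusted p = 0.21).

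Summed markers of neutrophils, eosinophils, monocytes and epithelium were also highest in Fr2. The summed linear level of 12 neutrophil markers was 498 to 550 in Fr2, 117 to 128 in Fr1 and 25.8 to 51.1 in Fr3. Of the 12, 12 and 11 were above background on the Fr2 arrays, 10 and 9 on those of Fr1 and 10 and 8 on those of Fr3; Ltf and Ly6g were dim on both Fr1 arrays, and Elane and Ly6g on both Fr3 arrays. For 8 eosinophil markers the sum was 79.9 to 157 in Fr2, 19.6 to 20.2 in Fr1 and 7.32 to 12.5 in Fr3, and for 6 monocyte markers 85.0 to 107, 15.0 to 35.7 and 5.86 to 9.23. For 8 epithelial markers it was 8.19 to 8.23 in Fr2, 3.01 to 3.08 in Fr1 and 3.46 to 5.94 in Fr3, with 4 and 5 of the 8 above background on the Fr2 arrays and Krt5, Cdh1 and Krt8 dim on both. For 6 fibroblast markers the Fr1 and Fr2 sums overlapped, at 1.44 to 4.05 and 3.89 to 8.08, against 3.10 to 3.41 in Fr3. Their part in the Fr2 levels of Ctse and Ctsk was not tested. Between Fr1 and Fr3, macrophage markers were higher in Fr3 and dendritic cell markers higher in Fr1: 8 macrophage markers summed to 74.7 to 76.4 in Fr1, 110 to 228 in Fr2 and 176 to 224 in Fr3, 8 CD206-high macrophage markers to 18.2 to 26.5, 58.2 to 142 and 517 to 799, and 8 dendritic cell markers to 12.4 to 16.9, 10.1 to 12.6 and 3.66 to 5.08. The sum of 8 T and NK cell markers, 7 of which had a probe, was 14.2 to 16.3 in Fr1 and at most 3.35 elsewhere. Their part in the lysosomal difference was not tested.

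**Figure D4:**
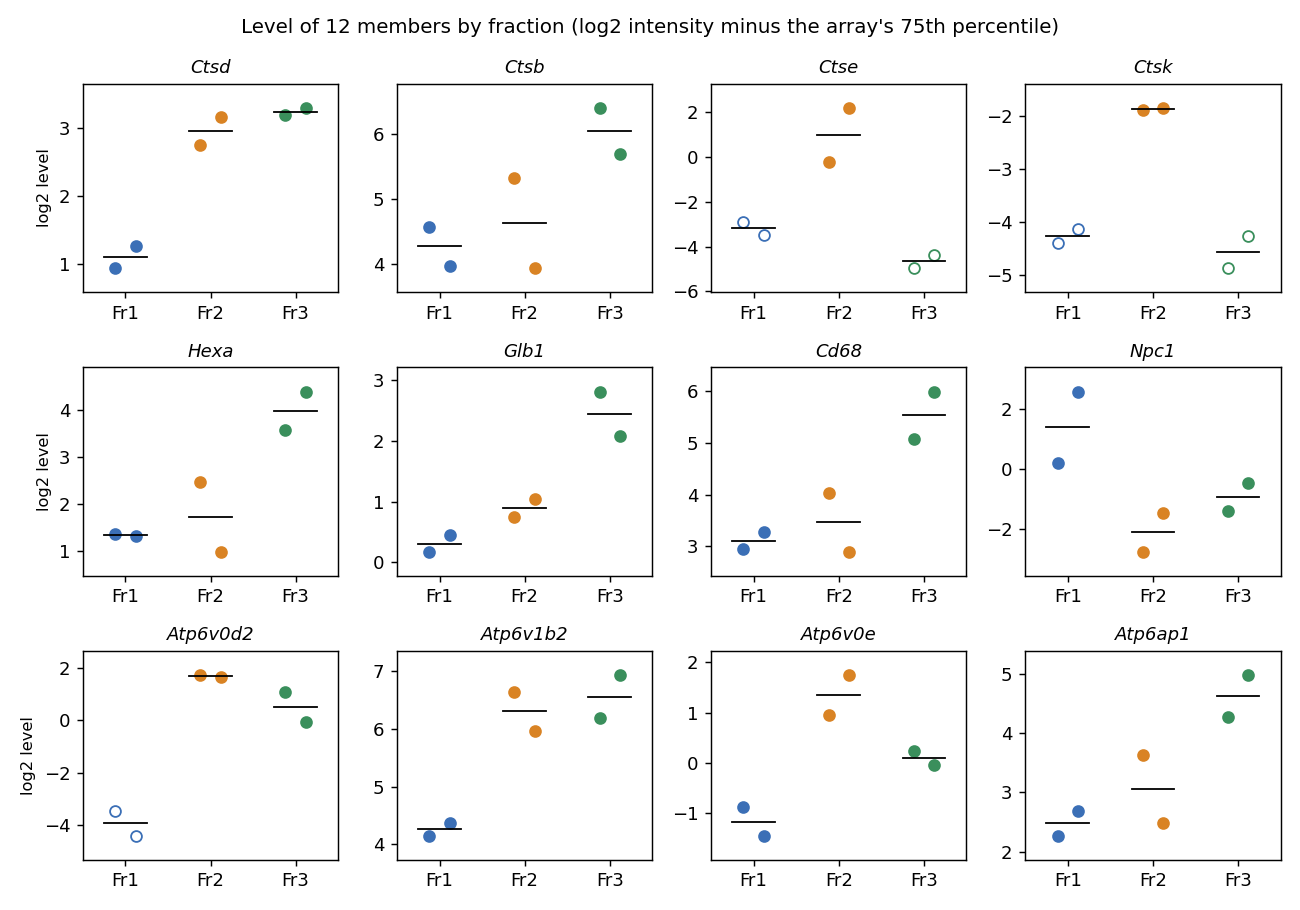
Level of 12 lysosomal genes on each array (points) with the mean of each fraction (lines), in log2 intensity minus the array's 75th percentile; open points are not well above background. Each panel has its own scale, so heights are compared within a panel only. Ctsd, Hexa, Glb1, Cd68 and Atp6v1b2 show both Fr3 points above both Fr1 points, and Ctse and Ctsk show filled points in Fr2 alone.

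Of the 9 other soluble proteins, 3 lay higher in Fr3 than in Fr1 (21.9% of all genes) and 2 lower (13.7%), and the median difference was 0.05, so as a group they lay near all genes. Hexa encodes the alpha subunit of hexosaminidase, which degrades gangliosides. It measured 1.35 and 1.33 on the 2 arrays of Fr1, 2.47 and 0.99 on those of Fr2 and 3.57 and 4.39 on those of Fr3 (chr9:59411712-59411771). Both Fr3 arrays were above all others. Fr3 averaged 6.24-fold above Fr1 (2.64 ± 0.69 on the log2 scale, limma adjusted p = 0.35) and 4.77-fold above Fr2 (2.25 ± 0.69 on the log2 scale, limma adjusted p = 0.41).

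Glb1, which encodes the lysosomal beta-galactosidase, measured 0.17 and 0.44 on the 2 arrays of Fr1, 0.75 and 1.04 on those of Fr2 and 2.82 and 2.08 on those of Fr3 (chr9:114383440-114383499). The fractions stood in the order Fr1, Fr2, Fr3 with no overlap, and Fr3 averaged 4.42-fold above Fr1 (2.14 ± 0.56 on the log2 scale, limma adjusted p = 0.35). All 4 of its kept probes placed Fr3 above Fr1, by 0.28 to 2.14. The probe used carries no RefSeq mRNA accession. The kept probe that has one gave -0.30 and -0.19 in Fr1, 0.003 and 0.49 in Fr2 and 2.01 and -0.08 in Fr3. With that probe Fr2 and Fr3 overlapped. Another kept probe placed Fr1 above Fr2. Gaa encodes acid alpha-glucosidase, which degrades glycogen. It was the reverse case, at -1.04 and -1.14 on the 2 arrays of Fr1, -2.32 and -2.90 on those of Fr2 and -2.26 and -1.73 on those of Fr3 (chr11:119136014-119136073), where replicate 2 of Fr2 was not above background. Fr1 averaged 2.87-fold above Fr2 (1.52 ± 0.55 on the log2 scale, limma adjusted p = 0.47) and 1.87-fold above Fr3 (0.91 ± 0.55 on the log2 scale, limma adjusted p = 0.64).

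Npc2, the soluble carrier of lysosomal cholesterol, lay 0.42 higher in Fr3 than in Fr1, and Psap, the precursor of the saposins, 0.45 higher in Fr1. Gusb (beta-glucuronidase), Tpp1 (a tripeptidyl peptidase), Lipa (the acid lipase) and Grn (progranulin) overlapped between Fr1 and Fr3. For Grn the brightest probe was level, at 9.84 and 10.23 in Fr1, 9.95 and 9.78 in Fr2 and 9.73 and 10.38 in Fr3, while its other 2 kept probes lay higher in Fr3 than in Fr1 by 1.27 and 1.84. For Gusb the brightest probe gave Fr3 lower and the other kept probe Fr3 higher.

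In the membrane group, 3 of 8 genes lay higher in Fr3 than in Fr1 (21.9% of all genes) and 1 lower (13.7%, near 1 of 8). Cd68 encodes macrosialin, a heavily glycosylated membrane protein used as a macrophage marker. It measured 2.95 and 3.28 on the 2 arrays of Fr1, 4.03 and 2.90 on those of Fr2 and 5.08 and 5.99 on those of Fr3 (chr11:69477775-69477834). Both Fr3 arrays were above all others, with Fr3 5.35-fold above Fr1 (2.42 ± 0.65 on the log2 scale, limma adjusted p = 0.37) and 4.20-fold above Fr2 (2.07 ± 0.65 on the log2 scale, limma adjusted p = 0.42). All 3 of its kept probes agreed in sign for both differences. Lamp1 and Lamp2 encode the main glycoproteins that line the lysosomal membrane. Lamp1 measured 3.63 and 3.07 on the 2 arrays of Fr1, 3.88 and 3.39 on those of Fr2 and 4.72 and 4.11 on those of Fr3 (chr8:13175136-13175195), with a Fr3 minus Fr1 difference of 1.07 ± 0.57 on the log2 scale, limma adjusted p = 0.62. Its second probe, nearby at chr8:13175277-13175336, gave 0.07 and -0.63 in Fr1, 2.12 and 2.01 in Fr2 and 3.37 and 3.15 in Fr3, a wider separation in the same order. Lamp2 measured 4.83 and 4.89 in Fr1, 6.11 and 5.45 in Fr2 and 6.18 and 5.69 in Fr3, with Fr1 lowest and the other 2 fractions overlapping.

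Npc1 encodes the membrane protein that exports cholesterol from the lysosome together with NPC2. It measured 0.20 and 2.58 on the 2 arrays of Fr1, -2.74 and -1.44 on those of Fr2 and -1.37 and -0.45 on those of Fr3 (chr18:12376612-12376671), highest in Fr1, 11.2-fold above Fr2 (3.48 ± 0.93 on the log2 scale, limma adjusted p = 0.36) and 4.93-fold above Fr3 (2.30 ± 0.93 on the log2 scale, limma adjusted p = 0.6). That probe carries no RefSeq mRNA accession. With the brightest kept probe that has one, Fr1 minus Fr2 was 0.14 and Fr1 minus Fr3 was -0.44. Mcoln1 encodes TRPML1, the calcium channel of the lysosome. It measured -0.73 and -0.48 on the 2 arrays of Fr1, 0.50 and 1.21 on those of Fr2 and -3.13 and 0.06 on those of Fr3 (chr8:3513500-3513559), and Fr3 replicate 1 was not above background while replicate 2 was. Without that array, Fr1 minus Fr3 changed from 0.93 to -0.67, and with the probe that has a RefSeq mRNA accession Fr1 minus Fr2 changed from -1.46 to 0.12. Tfeb, the regulator, was level by its brightest probe, at 1.46 and 2.00 on the 2 arrays of Fr1, 1.02 and 1.95 on those of Fr2 and 1.72 and 2.37 on those of Fr3 (chr17:47896359-47896418), with a Fr3 minus Fr1 difference of 0.31 ± 0.62 on the log2 scale, limma adjusted p = 0.93. That Tfeb probe carries no RefSeq mRNA accession. The kept Tfeb probes that have one were dimmer and gave Fr1 minus Fr3 of -1.29, -0.34 and -0.01. The probe with -1.29 was above background on 2 arrays only. Cd63, a tetraspanin, overlapped between all fractions. Scarb2, the receptor that carries glucocerebrosidase to the lysosome, was split within fractions, at -0.32 and -0.80 in Fr1, 0.59 and -4.00 in Fr2 and 2.06 and -1.08 in Fr3, and was above background on 1 of the 2 Fr2 arrays.

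**Figure D5:**
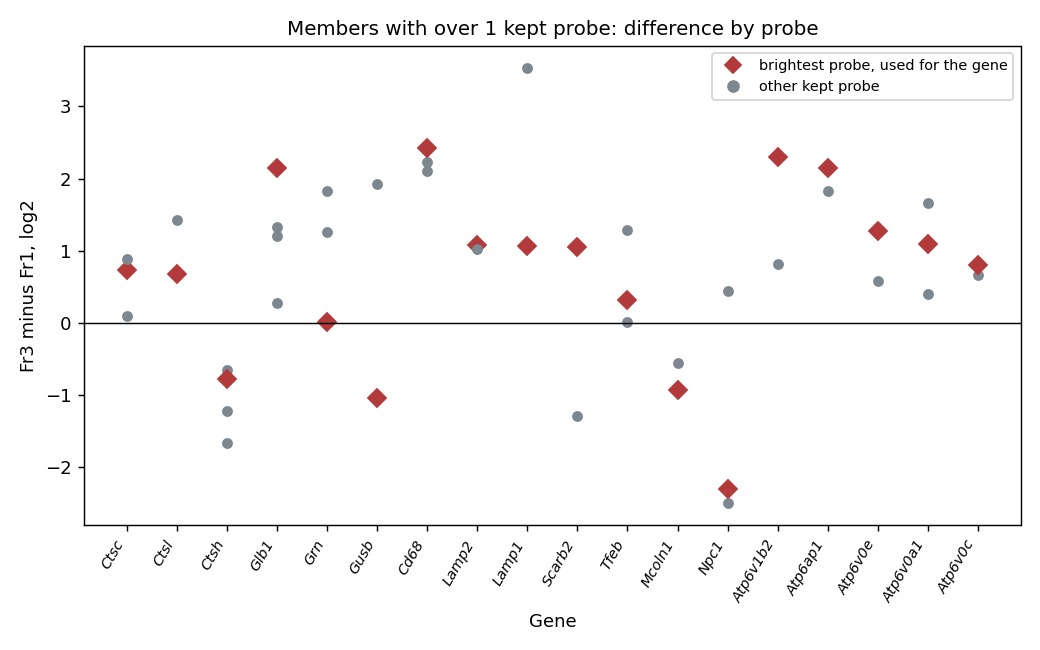
Fr3 minus Fr1 (log2) for each kept probe of the 18 lysosomal genes with over 1 kept probe; diamonds are the brightest probes, which stand for the gene, and circles the others. For 15 of the 18 all probes lie on 1 side of 0; Gusb, Scarb2 and Npc1 are the 3 that do not.

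Agreement between probes was lower where Fr2 was involved: all kept probes had 1 sign for 8 of the 18 genes between Fr1 and Fr2 and for 12 of 18 between Fr2 and Fr3, against 15 of 18 between Fr1 and Fr3.

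The genes with the E-box core were described by the same counts. Of the 12 with CACGTG in the promoter window, 9 lay higher in Fr3 than in Fr1 (21.9% of all genes) and 1 lower (13.7%), with a median of 1.02. Of the 23 tested genes whose window lacked it, 8 lay higher and 1 lower, with a median of 0.31. Against Fr2, 8 of the 12 and 4 of the 23 lay higher in Fr3 (22.7% of all genes), and 4 of 23 is near that share. Atp6v0d2, Atp6v1b2, Ctsb, Ctse, Ctsh, Npc1, Atp6v1g1, Atp6v1h and Atp6v1c1 had no entry in the promoter table and are in neither count. No test of this split was made.

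The rest of the lysosomal pathway was read from 6 lists of other genes, whose counts without overlap are to be read against 21.9% of all genes higher in Fr3 than in Fr1 and 13.7% higher in Fr1. Of 39 other lysosomal enzymes, 34 were tested, and 11 lay higher in Fr3 than in Fr1 (32.4%) and 3 lower (8.82%), with a median of 0.39. Lyz2, the macrophage lysozyme, measured 2.94 and 2.85 on the 2 arrays of Fr1, 6.06 and 5.55 on those of Fr2 and 6.40 and 6.50 on those of Fr3 (Fr3 minus Fr1 3.55 ± 0.53 on the log2 scale, limma adjusted p = 0.14). Its near-identical neighbour Lyz1 measured 3.67 and 3.33 in Fr1, 6.38 and 5.62 in Fr2 and 6.22 and 6.60 in Fr3, and the probes may share signal. Ctsf, which encodes cathepsin F, measured -1.25 and -1.75 in Fr1, -0.05 and -1.13 in Fr2 and 1.17 and 3.05 in Fr3, with both Fr3 arrays highest. Of 33 other membrane proteins and transporters, 30 were tested, with 13 higher in Fr3 (43.3%) and 2 higher in Fr1 (6.67%), and a median of 0.59. They included Mcoln2, a relative of TRPML1, at -0.54 and -1.30 in Fr1, -1.31 and -0.34 in Fr2 and 1.72 and 0.90 in Fr3, Hgsnat, a membrane acetyltransferase of heparan sulfate breakdown, at 2.33 and 2.01 in Fr1, 4.99 and 3.30 in Fr2 and 5.21 and 3.90 in Fr3, and Slc11a1, a metal transporter of phagosomes, at 0.51 and -0.03 in Fr1, 2.61 and 1.56 in Fr2 and 1.39 and 2.39 in Fr3.

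Of the 10 other V-ATPase genes, 7 were tested, and 2 lay higher in Fr3 (28.6%, against 21.9% of all genes) and 1 in Fr1 (14.3%, against 13.7%), with a median of 0.11, which is near all genes. Atp6v0e2, the second isoform of the small subunit e, was above background on both arrays of Fr3 only, at -2.85 and -2.76 in Fr1, -3.04 and -1.92 in Fr2 and -1.47 and -1.05 in Fr3. It is 1 of the 2 higher in Fr3 and was kept for testing through its Fr3 arrays alone. Atp6v0a2 measured -0.07 and -1.20 in Fr1, 0.95 and -1.13 in Fr2 and -1.89 and -1.32 in Fr3, and Atp6ap1l, above background in Fr2 alone, -3.38 and -4.21 in Fr1, -2.65 and -2.48 in Fr2 and -3.12 and -4.45 in Fr3. Of 22 genes of lysosomal sorting and the mannose 6-phosphate pathway, 21 were tested, with 7 higher in Fr3 (33.3%) and 0 higher in Fr1. Gnptg, a subunit of the phosphotransferase that tags lysosomal enzymes, measured -0.24 and -2.39 in Fr1, 1.15 and 0.76 in Fr2 and 0.51 and 0.73 in Fr3, above background on 1 of the 2 Fr1 arrays. Rab27a and Hps4, of lysosome-related organelles, were highest in Fr2, with means of -1.76 and 1.57; Rab27a was above background in Fr2 alone.

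Among 23 genes of the TFEB family and nutrient sensing, 21 were tested, with 7 higher in Fr3 (33.3%, against 21.9% of all genes) and 2 higher in Fr1 (9.52%, against 13.7%). Tfec, a macrophage relative of TFEB, measured -1.24 and -3.99 on the 2 arrays of Fr1, 0.52 and 0.94 on those of Fr2 and 3.32 and 1.67 on those of Fr3 (Fr3 minus Fr1 5.11 ± 1.02 on the log2 scale, limma adjusted p = 0.24). It was above background on 1 of the 2 Fr1 arrays, so the size of this difference rests in part on a background level. Lamtor5, of the complex that anchors nutrient signalling to lysosomes, measured -2.85 and -1.93 in Fr1, -0.15 and -1.11 in Fr2 and 0.21 and 0.46 in Fr3, with both Fr1 arrays not above background. Mtor, the kinase that holds TFEB in the cytosol, measured 0.11 and 0.32 in Fr1, 0.61 and -0.46 in Fr2 and -1.78 and -4.39 in Fr3, with replicate 2 of Fr3 not above background. Of 15 cathepsin inhibitors 12 were tested, and 6 lay higher in Fr2 than in Fr3 (50%, against 19.5% of all genes) and 1 lower (8.33%, against 22.7%), with a median of 2.07, while 5 lay higher in Fr1 than in Fr3 (41.7%, against 13.7%) and 1 lower (8.33%, against 21.9%). Stfa2, a stefin A, measured 1.38 and 1.53 on the 2 arrays of Fr1, 2.41 and 3.84 on those of Fr2 and -0.71 and -1.63 on those of Fr3 (Fr2 minus Fr3 4.29 ± 0.69 on the log2 scale, limma adjusted p = 0.14). Stfa1, at -4.36 and -4.06 in Fr1, -1.85 and 1.46 in Fr2 and -4.86 and -4.27 in Fr3, and Cst7, at -2.21 and -4.23 in Fr1, -0.74 and -0.95 in Fr2 and -5.00 and -4.44 in Fr3, were above background in Fr2 alone. Both were kept for testing through those arrays, so their part in the counts and the median is not independent of that filter. Cst7 is also among the 5 higher in Fr1, where its order is that of background levels. Of the 12 inhibitors, 7 were above background on all 6 arrays. Genes kept in this way are also in the counts over the 6 lists that close this paragraph. The stefin A genes are near-identical copies, so their probes may share signal, and neutrophils express them; the neutrophil markers given above were also highest in Fr2, and their part was not tested. No gene of the 6 lists (0 of 125 tested) was called by limma; at an unadjusted p under 0.05, 16 were higher in Fr3 (5.34% of all genes) and 5 in Fr1 (2.78%) between those fractions, 20 in Fr2 (6.46%) and 1 in Fr1 (3.33%), and 8 in Fr2 (4.83%) and 4 in Fr3 (4.08%).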

How the data were processed

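Per the labels' protocols, whole-transcriptome amplification of small RNA inputs preceded Cy3 labelling, and 6 sorted samples were read on 1-colour Agilent mouse arrays. Per the file headers, Agilent Feature Extraction (version 11.5.1.1) gave the deposited spot intensity after background subtraction, with surrogate values for dim spots. A value table deposited by the authors gives the same arrays on a log2 scale (r of at least 0.9999 with the intensities on each array, column medians -2.43 to -2.25); its scale and direction matched and it served as an alternative. The flags for spots well above background, saturated or outlying are also those of the deposited files. Aligners and genome builds do not enter; probe coordinates are the files', on mm9. Amplification can alter relative levels, and the few arrays limit the precision: p-values measure the spread between 2 samples per group.

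Spots of a probe were averaged, and log2 intensity minus the array's 75th percentile was taken. Probes were kept where the 2 arrays of some fraction both rose well above background (27867 probes; 4 had a missing value), and the brightest kept probe stood for a gene, which gave 20817 genes. The test was limma (version 3.58.1, R 4.3.3), fitted as 3 group means over 6 arrays with Benjamini-Hochberg adjustment over all genes; a call is an adjusted p under 0.05, two-sided, and errors are limma's standard errors. The method was tested on simulated data. Promoters and gene names came from RefSeq tables. Genes named singly are, per role, the 3 with the smallest F-test p and the 2 with the largest difference, plus Tfeb, Mcoln1, Lamp1, Cd68 and Ctss, and per other list the 3 with the smallest F-test p; others were named after their values were seen. The members, lists and alternatives were chosen with earlier results of these data known, and the motif search and the probe choice by RefSeq accession were added in this work after values were seen.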

Additional observations from a re-analysis of the deposited data

How the results depend on the processing

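With 2 arrays per fraction and weak calls, counts of called genes moved with the settings, while the share of lysosomal genes higher in Fr3 than in Fr1 moved little. It was 20 to 24 of 36 to 45 tested genes under 8 of the 9 other settings of scaling, filter and probe choice (15.6% to 22.6% of all genes). With probes over 30% T left out it was 15 of 32 (24.3% of all genes). Genes called between Fr1 and Fr2 (0) were 3 without probes over 30% T, 13 with only the 4 arrays compared, 1 with an intensity trend, and 0 to 13 leaving out 1 array. Between Fr1 and Fr3 (1) they were 2 with normexp, 0 without a filter, 12 without probes over 30% T, 0 with only 4 arrays, 13 with a trend, and 0 to 1476 leaving out 1 array, where 1476 is without Fr3 replicate 1 (its lone partner is assumed to vary like the other groups). Between Fr2 and Fr3 (1) they were 13 with normexp, 9 with probes on all 6 arrays, 56 without probes over 30% T, 0 with only 4 arrays, 12 with a trend, and 0 to 988 leaving out 1 array, with 988 without the same array.

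In the main setting 0 lysosomal genes were called. With only the 4 arrays of Fr1 and Fr2, 1 of 43 was called, Atp6v0d2, against 13 of 20817 genes. Where a fraction keeps 1 array, a call rests on a spread assumed for that array. Lysosomal calls from such fits are not read. Leaving out 1 array raised the share of all genes without overlap, so the lysosomal counts are given beside it. Between Fr1 and Fr2, 18 to 32 lay higher in Fr2 (33.8% to 37.9% of all genes) and 4 to 17 in Fr1 (34.3% to 41.2%). Between Fr1 and Fr3, 24 to 27 lay higher in Fr3 (29.9% to 46.2%) and 6 to 10 in Fr1 (28.3% to 35.3%). Between Fr2 and Fr3, 16 to 26 lay higher in Fr3 (35.3% to 44.5%) and 10 to 14 in Fr2 (30.5% to 34.4%). Without probes over 30% T, 8 of 32 lay higher in Fr2 than in Fr1 (22.5% of all genes, so near that share) and 3 of 32 higher in Fr2 than in Fr3 (15.7%); with probes on all 6 arrays that last count was 4 of 36 (17.6%). Median differences moved to -0.40 for Fr1 minus Fr3 with normexp (all genes 0.01). For Fr2 minus Fr3 without probes over 30% T the median was -0.59 (all genes -0.28). Further moves came with 1 array left out. The Fr1 minus Fr2 median lay between -0.73 (all genes 0.05, without Fr2 replicate 2) and -0.15 (all genes -0.004, without Fr2 replicate 1). The Fr2 minus Fr3 median lay between -0.47 (all genes -0.24, without Fr3 replicate 1) and -0.05 (all genes -0.04, without Fr2 replicate 2). In that last setting the lysosomal median was near that of all genes. The cause of these moves was not tested.

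With no filter, the median of all genes shifted to 0.30 (Fr1 minus Fr2) and -0.27 (Fr2 minus Fr3). The lysosomal medians in that setting were -0.39 and -0.28, so for Fr2 minus Fr3 they lay near all genes. The labels number replicates 1 and 2 in each fraction without saying that a number marks a shared experiment; same-numbered arrays deviated together with r = 0.12 (Fr1 and Fr2), 0.43 (Fr1 and Fr3) and 0.05 (Fr2 and Fr3), so the block is only a check. With the replicate block 0 genes were called in each of the comparisons, 0 of them lysosomal. The slide could not be fitted as a block, since both Fr2 arrays lie on 1 slide.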
